A study of Homo sapiens with 6 samples.

Results

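The 39 protein-coding genes of the 4 human HOX clusters were read out in A172 cells, a glioblastoma cell line, with and without added RBFOX1. Members were every protein-coding gene whose symbol is HOXA, HOXB, HOXC or HOXD followed by a number, and all 39 were among the 58051 genes counted in each library. The series holds 6 libraries, 3 from a stable A172 line expressing GFP and 3 from a stable A172 line expressing RBFOX1, an RNA-binding protein of neurons and muscle that binds GCATG sequences. Both lines were made with lentivirus packaged in HEK293T cells and added with polybrene, so the GFP line was exposed to virus too. The amount of virus that each line received was not stated. The labels do not say whether a line is a clone or whether its libraries come from separate infections. The effects of RBFOX1 and of line derivation cannot be told apart. RNA was depleted of ribosomal RNA and sequenced from stranded libraries, so a HOX gene and its antisense neighbour were counted separately. RBFOX1 itself had 4, 0 and 1 counts in the GFP libraries and 10276, 16467 and 21451 counts in the RBFOX1 libraries.

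HOX genes encode homeodomain transcription factors that give cells a position along the body axis. Mammals carry them in 4 clusters, and genes of the same paralogue number in different clusters descend from a common ancestor gene. Within a cluster, genes with low numbers lie at the 3′ end and are used early and towards the head, whereas genes with high numbers lie at the 5′ end and are used late and towards the tail. The forebrain develops largely without HOX expression, and many glioblastomas express HOX genes that the normal cortex lacks. Below, paralogues 1 to 3 are called anterior, 4 to 8 central and 9 to 13 posterior. HOX proteins bind DNA together with the TALE homeodomain proteins of the PBX, MEIS and PKNOX families.

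Between 7433414 and 23249221 counts fell on genes in each library. HOX genes took between 0.0347% and 0.037% of the counts in the GFP libraries and between 0.0424% and 0.0462% in the RBFOX1 libraries. The glial and glioma markers ranged widely in level. The mesenchymal filament gene VIM had 62887, 57301 and 58577 normalized counts in the GFP libraries and 37326, 38051 and 38339 in the RBFOX1 libraries. The astrocyte markers GFAP and AQP4 had at most 4 counts and 0 counts in any library. Markers of other cell types also moved with the groups. The 3 endothelial markers summed to between 10.3 and 12.8 normalized counts in the GFP libraries and between 95.9 and 109 in the RBFOX1 libraries, and all 3 rose. The 7 neuronal markers summed to between 182 and 192 against 439 and 578, with 3 of 4 tested members higher, and DCX was at 0. The 4 epithelial markers summed to between 8749 and 9014 against 32338 and 33674, with 3 of 4 higher, and the 9 glial and glioma markers summed to between 76164 and 77781 against 50443 and 51197, with 2 higher and 3 lower of 7 tested. Of the 4 immune markers 2 were detected, CD3E was at 0, PTPRC was higher and ITGAM lower, and the sums were 60.7 to 77.1 against 81.6 to 89.5. These sums followed the most abundant markers of each list. VIM made up most of the glial and glioma sum and the keratin genes most of the epithelial sum. The sums therefore do not show that every marker moved. The part of these markers in the HOX values was not tested. In such bulk libraries fewer cells expressing a gene and less RNA per cell cannot be told apart.

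The HOXB cluster was expressed along nearly its whole length in A172 cells, and the other 3 clusters were used mainly at their 5′ ends. Levels between genes were compared as RPKM, the count divided by the length of the exons in kilobases and by the scaled library size, and a gene was called expressed when its mean was at least 1 on this scale in either group. By this rule 22 of 39 HOX genes were expressed, 9 of 10 in HOXB, 4 of 11 in HOXA, 4 of 9 in HOXC and 5 of 9 in HOXD. By position, 2 of 8 anterior, 7 of 15 central and 13 of 16 posterior genes were expressed. Both expressed anterior genes, HOXB2 and HOXB3, lie in HOXB.

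**Figure D1:**
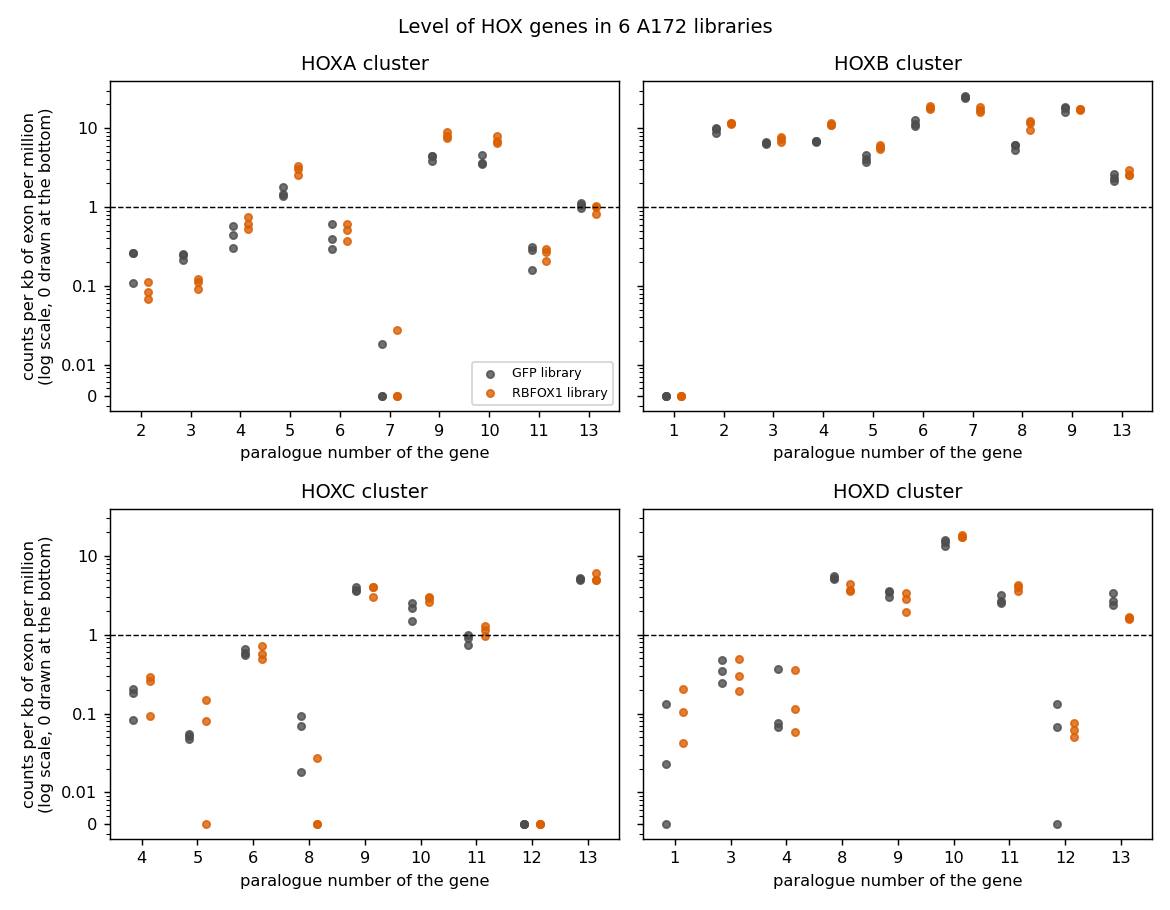
Level of HOX genes in RPKM, counts per kilobase of exon scaled to library size, on a log axis with 0 drawn at the bottom, against paralogue number, 1 panel per cluster. Each point is 1 library, grey for GFP and orange for RBFOX1, and the dashed line marks a level of 1. All HOXB genes but HOXB1 lie above the line in both groups, whereas HOXA, HOXC and HOXD genes above it begin at HOXA5, HOXC9 and HOXD8.

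HOXB (chr17:48528526-48728750, GRCh38, minus strand) held 60.4% to 62.7% of the summed per-length HOX level in every library. Its most highly expressed member over all libraries was HOXB7, at 24.8 ± 0.75 (SD, n = 3) on this scale in GFP cells. In the RBFOX1 libraries HOXB6, at 18.1 ± 0.763, HOXB9, at 17.1 ± 0.286, and HOXB7, at 17.1 ± 1.16, differed by less than the SD of HOXB7. The expressed range ran from HOXB2, at 9.53 ± 0.77 in GFP cells, to HOXB13, at 2.35 ± 0.238, which lies 98.4 kb from its neighbour HOXB9. HOXB1, the 3′ gene of the cluster, had 0 counts in all 6 libraries.

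In HOXA (chr7:27092993-27200091, minus strand) the highest level was that of HOXA9, at 4.24 ± 0.337 in GFP cells and 8.03 ± 0.724 in RBFOX1 cells, followed by HOXA10, at 3.89 ± 0.544 and 7.07 ± 0.75. The expressed range began at HOXA5, at 1.54 ± 0.235 in GFP cells, and ended at HOXA13, whose 1.05 ± 0.0756 and 0.948 ± 0.108 lay on the line that defines it. The range was broken. HOXA6 and HOXA11 stayed below 1, and HOXA7 had 1 count in a GFP library, 1 count in an RBFOX1 library and 0 in the other 4. In the 3′ part, HOXA2, HOXA3 and HOXA4 had mean levels between 0.0884 and 0.63 in the 2 groups.

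The HOXC and HOXD clusters were used from paralogue 8 or 9 upwards. In HOXC (chr12:53938831-54056030, plus strand) the highest level was that of HOXC13, at 5.07 ± 0.13 in GFP cells, and the range ran from HOXC9, at 3.76 ± 0.202, to HOXC13. HOXC12 was at 0 in all 6 libraries inside that range, and HOXC11 lay at 0.874 ± 0.119 in GFP cells and 1.13 ± 0.168 in RBFOX1 cells. HOXC4, HOXC5, HOXC6 and HOXC8 stayed below 1. Only 32.7% of the exon bases of HOXC5 belong to no other gene on its strand, so its counts of 0 to 3 per library are uncertain. In HOXD (chr2:176092721-176190907, plus strand) HOXD10 was the most highly expressed gene, at 14.8 ± 1.31 in GFP cells and 17.8 ± 0.762 in RBFOX1 cells. The range ran from HOXD8, at 5.27 ± 0.208, to HOXD13, at 2.82 ± 0.536, with a gap at HOXD12, which had 0 to 4 counts per library. HOXD1, HOXD3 and HOXD4 stayed below 1.

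The comparison asks which RNA levels differ between A172 cells with added RBFOX1 and with GFP. The HOX genes that passed the test shifted within the clusters in both directions, mostly upwards and, among those 15 genes, by under 2-fold but for HOXA3. Genes whose 6 libraries added up to 10 counts or more were tested with edgeR's quasi-likelihood test and Benjamini-Hochberg adjustment over 20536 genes. Of the 39 members 34 were tested. HOXA7, HOXB1, HOXC5, HOXC8 and HOXC12 were not. At an adjusted p under 0.05, 15 of the 34 changed. This was 44.1% of the tested HOX genes, a share close to the 46.6% of all genes tested. Among the 34, 11 were higher in RBFOX1 cells, beside 23.7% of all genes tested, and 4 were lower, beside 22.9%. The libraries of the groups did not overlap for 16 of the 34, beside 53.4% of all genes tested. Of the 21 tested members with a mean of at least 50 normalized counts 14 changed, beside 63.8% of all genes at that level. Here 11 were higher, beside 30.4%, and 3 lower, beside 33.4%. The median log2 fold change was 0.14 over the 34 members and 0.01 over all genes tested.

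**Figure D2:**
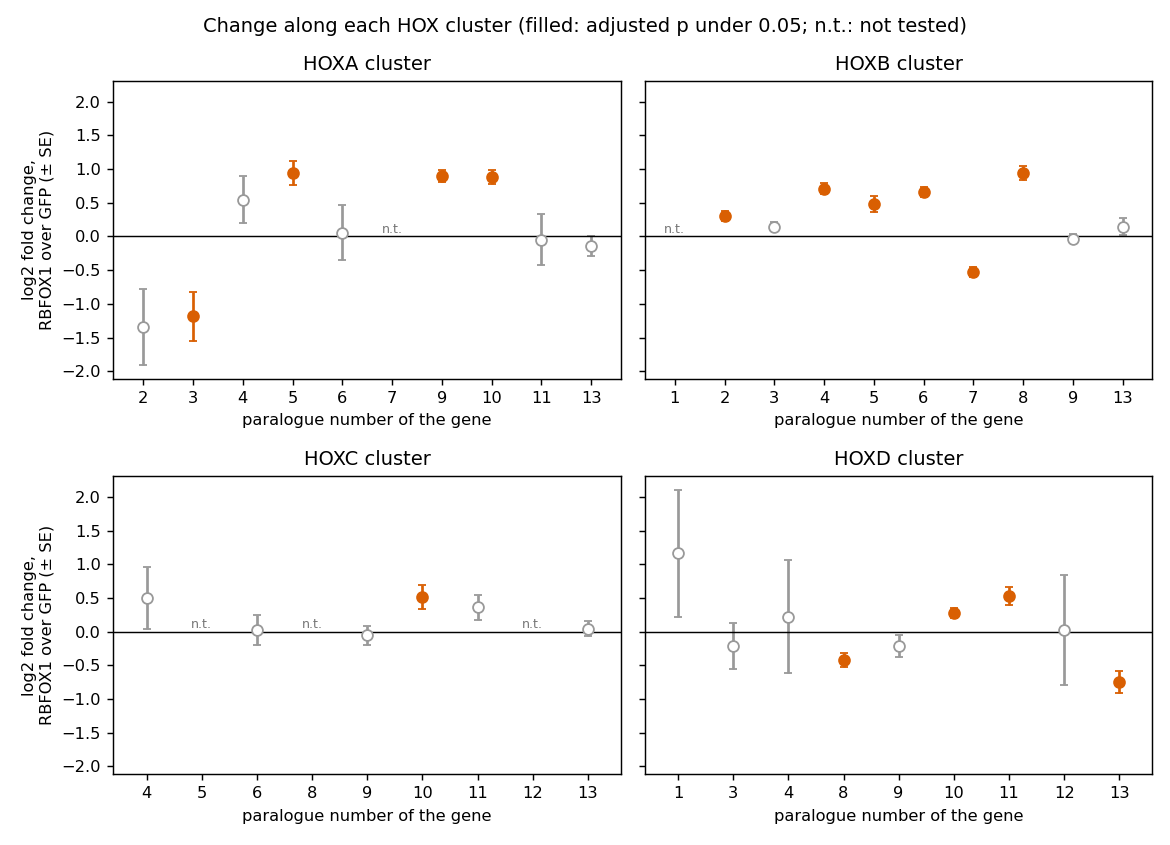
Log2 fold change of RBFOX1 over GFP cells with its SE from the edgeR fit, against paralogue number, 1 panel per cluster. Filled orange points passed an adjusted p of 0.05, open points did not, and n.t. marks genes that were not tested. In HOXB the 5 genes that rose surround HOXB7, which fell, and in HOXD HOXD10 and HOXD11 rose between HOXD8 and HOXD13, which fell.

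By cluster, 6 of 9 tested HOXB genes (66.7%) and 4 of 10 HOXA genes (40%) changed. In HOXC 1 of 6 (16.7%) and in HOXD 4 of 9 (44.4%) did. These shares stand beside 46.6% of all genes tested and 63.8% of those with a mean of at least 50 normalized counts. All tested HOXB genes were at that level, whereas the other clusters also held tested genes below it. The median log2 fold change was 0.30 in HOXB, 0.06 in HOXA, 0.20 in HOXC and 0.02 in HOXD. The HOXA median became -0.036 without RBFOX1 library 1 and 0.22 without GFP library 1, and the HOXD median -0.24 without GFP library 1 and 0.15 without GFP library 2, so neither has a settled direction. By position, 7 of 12 tested central genes (58.3%) changed, 5 upwards and 2 downwards. Of the anterior genes 2 of 7 (28.6%) and of the posterior genes 6 of 15 (40%) changed. Whether the clusters or positions differ in these shares was not tested. Summed over a cluster on the per-length scale, HOXA went from 12.7 ± 0.267 to 21.1 ± 0.897 (SD, n = 3), HOXB from 89.1 ± 3.15 to 102 ± 4.17 (SD, n = 3), and HOXC from 12.6 ± 0.294 to 13.9 ± 0.949 (SD, n = 3). In these 3 clusters no RBFOX1 library lay within the range of the GFP libraries, which gives an exact two-sided permutation p = 0.1, the smallest that 3 against 3 libraries allow. The HOXD sum, 29.7 ± 2.96 to 30.7 ± 0.999 (SD, n = 3), overlapped between the groups, with an exact permutation p = 0.6.

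In the central part of HOXB, 4 genes rose and the gene between them fell. HOXB4, which is used in the hindbrain and in blood stem cells, had 191, 194 and 186 normalized counts in the GFP libraries and 303, 304 and 323 in the RBFOX1 libraries. Its log2 fold change was 0.71 ± 0.08 (SE), with an adjusted p of 6.72e-07. HOXB5 went from 105, 119 and 96.9 to 158, 142 and 149 normalized counts, a log2 fold change of 0.48 ± 0.12 (SE) with an adjusted p of 0.00175. For both genes all RBFOX1 libraries lay above all GFP libraries.

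HOXB6 counted 390.3, 405 and 456 in GFP cells and 646, 633 and 686 in RBFOX1 cells, a log2 fold change of 0.66 ± 0.07 (SE) with an adjusted p of 2.81e-07. HOXB7, its 5′ neighbour at a distance of 2.24 kb and the HOX gene with the highest per-length level in GFP cells, counted 520.3, 508 and 539 in GFP cells and 357, 339 and 387 in RBFOX1 cells. Its log2 fold change was -0.53 ± 0.07 (SE), with an adjusted p of 5.6e-06. The next gene, HOXB8, counted 175, 206 and 205 against 409.9, 319 and 394, with a log2 fold change of 0.95 ± 0.10 (SE) and an adjusted p of 1.8e-07. HOXB6 and HOXB8 were thus higher and HOXB7 lower in every RBFOX1 library than in any GFP library. HOXB6 shares exon bases with HOXB3, which leaves 83.4% of the HOXB6 exon bases unique to it.

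Because neighbours in a library share its depth, their ratio does not depend on scaling. The ratio of HOXB7 to HOXB6 normalized counts was 1.33, 1.25 and 1.18 in the GFP libraries and 0.553, 0.535 and 0.565 in the RBFOX1 libraries. The ratio of HOXB7 to HOXB8 was 2.98, 2.47 and 2.63 and 0.872, 1.06 and 0.984. Both ratios were higher in every GFP library than in any RBFOX1 library, with an exact two-sided permutation p = 0.1, the smallest possible here, and the pairs were chosen after their values were seen.

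At the ends of the expressed HOXB range changes were small or absent from the calls. HOXB2, a regulator of hindbrain segments, counted 295, 344 and 335 in GFP cells and 390.0, 401 and 399.9 in RBFOX1 cells, a log2 fold change of 0.30 ± 0.08 (SE) with an adjusted p of 0.00369. HOXB3 had 682, 666 and 645 against 793, 685 and 741 normalized counts. It did not pass the test at a log2 fold change of 0.15 ± 0.07 (SE) and an adjusted p of 0.0784, although its groups did not overlap, and it passed on leaving out GFP library 1 (adjusted p = 0.0436) or RBFOX1 library 2 (adjusted p = 0.03). It also passed with scaling by total counts only (adjusted p = 0.0216) and with edgeR's filterByExpr (adjusted p = 0.046). HOXB9 had a log2 fold change of -0.03 ± 0.07 (SE), and HOXB13, which is best known from the prostate, one of 0.14 ± 0.13 (SE). Neither passed, with adjusted p-values of 0.726 and 0.39.

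In HOXA the 5′ pair HOXA9 and HOXA10, both well known from myeloid leukaemia, rose by similar amounts. HOXA9 counted 189, 162 and 184 in GFP cells and 372, 331 and 312 in RBFOX1 cells, a log2 fold change of 0.89 ± 0.09 (SE) with an adjusted p of 1.16e-07. HOXA10 counted 189, 232 and 180.1 against 334, 407 and 351, a log2 fold change of 0.88 ± 0.10 (SE) with an adjusted p of 4.44e-07. Every RBFOX1 library exceeded every GFP library for both. The GENCODE model of a readthrough gene shares exons with both, which leaves 84.1% of the HOXA9 and 90.1% of the HOXA10 exon bases unique to them.

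HOXA5, further 3′ in the cluster, counted 34.6, 43.2 and 32.7 in GFP cells and 79.8, 61.1 and 72.1 in RBFOX1 cells. The log2 fold change was 0.95 ± 0.18 (SE), with an adjusted p of 0.000152 and no overlap. The anterior gene HOXA3 went the other way, from 15.2, 12.8 and 14.7 to 7.26, 6.66 and 5.48 normalized counts, which rest on 11 to 25 counts per GFP library and 4 to 6 per RBFOX1 library. Its log2 fold change was -1.18 ± 0.36 (SE), with an adjusted p of 0.0109. This call was lost without RBFOX1 library 3 (adjusted p = 0.0618) and in DESeq2 (adjusted p = 0.136).

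HOXA2, next to HOXA3, had 14, 3 and 8 counts in the GFP libraries and 2, 2 and 3 in the RBFOX1 libraries. Scaled for depth, the ratio of RBFOX1 to GFP counts was 0.38, with an exact 95% interval from 0.139 to 0.903 that covers counting error only. The edgeR test gave an adjusted p of 0.0596, and 0.0246 without GFP library 2. HOXA4, HOXA6, HOXA11 and HOXA13 did not pass, with adjusted p-values from 0.217 to 0.948. HOXA13 had 32 to 131 counts per library and the other 3 had 5 to 19, so their changes were measured with less precision than those of HOXA9 and HOXA10.

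For HOXA9 the upstream 250 bases of the RefSeq promoter are shown, since it had the largest rise among the genes past the threshold with a promoter in the reference table. Of the 39 members 20 had an entry there. Capitals mark 4 motifs searched on both strands. These were TATAAA, the TATA box, held by 10.7% of the 35116 promoters of the same length, and CCAAT, bound by NF-Y, held by 32.0%. The others were CACGTG, the E-box, held by 6.34%, and TGATNNAT, a composite of HOX and PBX recognition letters, held by 6.47%. The palindrome CACGTG reads alike on both strands. In HOXA9 (chr7:27165538-27165787, minus strand, GRCh38.p14) TATAAA begins 150, CACGTG 71 and CCAAT 55 bases before the annotated start.
HOXA9: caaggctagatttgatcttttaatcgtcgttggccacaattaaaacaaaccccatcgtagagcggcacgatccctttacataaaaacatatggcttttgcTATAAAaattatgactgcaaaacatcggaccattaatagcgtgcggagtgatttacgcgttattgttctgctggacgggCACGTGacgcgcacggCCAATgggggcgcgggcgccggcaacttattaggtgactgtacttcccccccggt

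HOXC changed little. HOXC10 counted 48.6, 71.2 and 84.3 in GFP cells and 96.1, 99.9 and 85.8 in RBFOX1 cells, a log2 fold change of 0.51 ± 0.18 (SE) with an adjusted p of 0.0205. The groups did not overlap, but the lowest RBFOX1 and the highest GFP library were close. The call did not survive leaving out GFP library 1 (log2 fold change 0.26, adjusted p = 0.187), RBFOX1 library 1 (adjusted p = 0.0522) or RBFOX1 library 2 (adjusted p = 0.0906), and DESeq2 gave an adjusted p of 0.0937. HOXC13, the most highly expressed gene of the cluster, counted 165, 162 and 171 against 201, 159.9 and 163, and HOXC9 counted 92.3, 84.1 and 84.3 against 94.3, 68.8 and 92.2. Both overlapped and did not pass, with adjusted p-values of 0.764 and 0.801. HOXC11 did not pass either, at a log2 fold change of 0.36 ± 0.19 (SE) and an adjusted p of 0.125.

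In HOXD the expressed genes moved in opposite directions. HOXD10, a posterior gene of the trunk and limbs, counted 464, 555 and 514 in GFP cells and 644, 594 and 604 in RBFOX1 cells, a log2 fold change of 0.27 ± 0.07 (SE) with an adjusted p of 0.00511. HOXD11 counted 74.7, 93.4 and 78 against 127, 105 and 119.6, a log2 fold change of 0.53 ± 0.13 (SE) with an adjusted p of 0.00264. Neither gene's groups overlapped. The 2 genes share exon bases with each other, which leaves 81.8% of HOXD10 and 78.6% of HOXD11 unique.

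HOXD13, the 5′ gene of the cluster and a patterning gene of digits, counted 79.5, 114 and 89.5 in GFP cells and 52.6, 54.4 and 56.6 in RBFOX1 cells. Its log2 fold change was -0.75 ± 0.16 (SE), with an adjusted p of 0.000684. HOXD8 counted 186, 201 and 189.6 against 134, 129.9 and 159.8, a log2 fold change of -0.42 ± 0.11 (SE) with an adjusted p of 0.00254. All RBFOX1 libraries lay below all GFP libraries for both. HOXD9, between HOXD8 and HOXD10, had 77.1, 92.3 and 90.6 against 50.8, 73.3 and 87.7 normalized counts, which overlapped, and an adjusted p of 0.319.

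Within libraries, the ratio of HOXD13 to HOXD11 was 1.07, 1.23 and 1.15 in GFP cells and 0.414, 0.516 and 0.473 in RBFOX1 cells. The ratio of HOXD8 to HOXD10 was 0.401, 0.362 and 0.369 and 0.208, 0.219 and 0.264. Neither overlapped between groups, again with an exact permutation p = 0.1 for pairs chosen after their values were seen. Both ratios were lower in all RBFOX1 libraries.

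**Figure D3:**
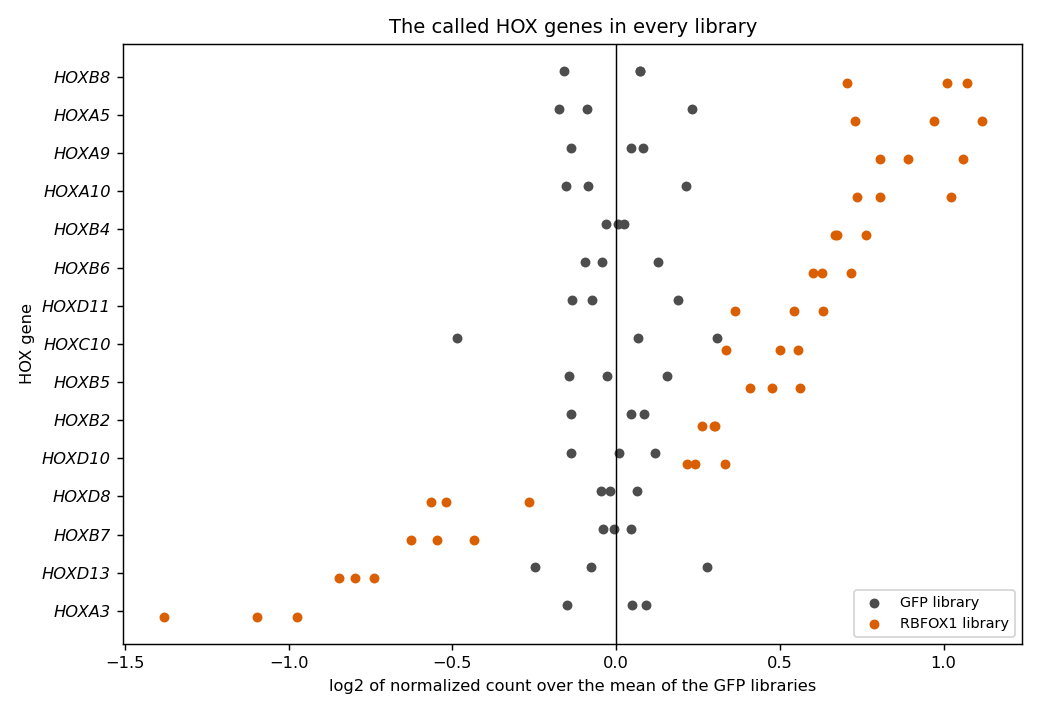
The 15 HOX genes that passed the test, each library drawn as the log2 of its normalized count over the mean of the GFP libraries, grey for GFP and orange for RBFOX1. The RBFOX1 points of 11 genes lie to the right of the GFP points and those of HOXD8, HOXB7, HOXD13 and HOXA3 to the left, and in HOXC10 the groups nearly touch.

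The upstream 250 bases of 3 HOXD promoters are shown together because HOXD10 and HOXD11 rose and HOXD13 fell. Capitals mark the same 4 motifs. HOXD10 lies at chr2:176116528-176116777, HOXD11 at chr2:176107030-176107279 and HOXD13 at chr2:176092471-176092720, all on the plus strand of GRCh38.p14. All 3 hold CACGTG, which was found in 8 of the 27 HOX windows in the table (29.6%). HOXD8, which also fell, holds none of the 4 motifs in its window (chr2:176129455-176129704, GC content 72.4%), so CACGTG is not common to the HOXD genes that changed. TATAAA begins 27 bases before the start in HOXD13 on the plus strand, with an overlapping match on the minus strand, and was not found in the HOXD10 and HOXD11 windows. TGATNNAT, in its reverse complement, begins 67 bases before the start in HOXD11. The GC content was 64%, 61.6% and 74%, beside a median of 58% over all promoters. These matches are a description of letters and were not linked to binding.
HOXD10: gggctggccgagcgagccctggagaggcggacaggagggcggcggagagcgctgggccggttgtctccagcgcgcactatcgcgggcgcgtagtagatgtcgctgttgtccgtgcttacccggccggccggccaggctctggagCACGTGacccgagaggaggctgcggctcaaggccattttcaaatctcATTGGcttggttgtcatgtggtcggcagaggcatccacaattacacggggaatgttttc
HOXD11: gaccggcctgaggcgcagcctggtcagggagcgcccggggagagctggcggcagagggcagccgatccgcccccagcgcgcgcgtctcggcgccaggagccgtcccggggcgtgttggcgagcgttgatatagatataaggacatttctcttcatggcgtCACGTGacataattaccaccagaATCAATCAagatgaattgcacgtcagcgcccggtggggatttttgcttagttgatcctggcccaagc
HOXD13: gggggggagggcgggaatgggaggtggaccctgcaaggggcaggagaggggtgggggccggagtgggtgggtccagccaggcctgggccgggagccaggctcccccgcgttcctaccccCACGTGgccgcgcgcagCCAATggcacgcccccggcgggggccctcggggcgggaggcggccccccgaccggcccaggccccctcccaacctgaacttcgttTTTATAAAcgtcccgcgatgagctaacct

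All 3 genes of paralogue 10 rose, HOXA10, HOXC10 and HOXD10, with log2 fold changes of 0.88, 0.51 and 0.27. Both tested genes of paralogue 5, HOXA5 and HOXB5, rose as well. The HOXC10 call was lost in 4 of 14 alternative fits. These 5 genes had means of at least 50 normalized counts, where 63.8% of all genes were called and 30.4% were higher. Of paralogue 9, HOXA9 rose at 0.89, whereas HOXB9, HOXC9 and HOXD9 did not pass at -0.03, -0.05 and -0.21. Paralogue 8 split, with HOXB8 higher at 0.95 and HOXD8 lower at -0.42. Of paralogue 13, HOXD13 fell at -0.75, and HOXA13, HOXB13 and HOXC13 did not pass at -0.14, 0.14 and 0.05. Differences between paralogues were not tested.

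RBFOX proteins bind GCATG, most strongly when preceded by T, and in 3′ untranslated regions such sites are linked to the fate of the mRNA. The letters TGCATG were therefore counted in the 3′ untranslated region of the canonical GENCODE transcript, on the transcript strand. They occurred 12 times in 10 of 39 HOX genes (25.6%), beside 33.3% of 19229 protein-coding genes, with median lengths of 905 and 1064 bases. Of the 10 genes with TGCATG 9 were tested, 3 rose and 0 fell. Of the 29 without it 25 were tested, 8 rose and 4 fell. Of all genes tested 23.7% were higher and 22.9% lower. Among the holders of TGCATG, HOXA11, HOXB13 and HOXD12 did not pass, nor did HOXA13 and HOXC11, which hold 2 sites each. Of the 3 that rose, HOXC10 lost its call in 4 of 14 alternative fits. The shorter GCATG was in 22 of 39 HOX genes (56.4%), beside 57.3% of all, and of the 18 tested among these 7 rose and 1, HOXD13, fell. No test was made of these splits. The sites of the 3 genes that rose are shown in 24 bases each, with TGCATG in capitals. They lie at chr7:27141443-27141466 on the minus strand for HOXA5, chr12:53990207-53990230 on the plus strand for HOXC10 and chr2:176119884-176119907 on the plus strand for HOXD10, in GRCh38.
HOXA5: gtttaactgTGCATGtgcgtggaa
HOXC10: tgtatctttTGCATGtagcttcct
HOXD10: tcctttctgTGCATGttctggtcg

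The clusters also hold microRNA genes, of which the miR-196 family is known to act on HOX mRNAs. Mature microRNAs were not measured by these libraries, and MIR196A1, MIR196A2 and MIR615 had 0 counts as genes, while MIR10B had 0 to 4. The seed, bases 2 to 8, is in capitals in the RefSeq sequences below, and miR-196a and miR-196b share it.
hsa-miR-196a-5p: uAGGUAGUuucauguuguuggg
hsa-miR-196b-5p: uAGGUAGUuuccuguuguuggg
The matching letters ACTACCT were found in the 3′ untranslated regions of 8 HOX genes (20.5%), beside 6.99% of all protein-coding genes. Of these 8 genes 5 were tested, of which HOXA5, HOXA9 and HOXB6 rose and HOXB7 fell. Of the 29 tested members without the match 8 rose and 3 fell. The 5 tested genes had means of at least 50 normalized counts. At that level 63.8% of all genes were called, 30.4% higher and 33.4% lower. No test was made of this split. The neighbours HOXB6 (chr17:48595934-48595956, minus strand) and HOXB7 (chr17:48607614-48607636, minus strand) each hold 1 match and moved in opposite directions, so their sites are shown with the match in capitals.
HOXB6: ctggaaggagcacatACTACCTa
HOXB7: caacactgaaaaaatACTACCTa

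Of 18 noncoding genes of the clusters 14 were tested, and 3 rose and 4 fell. These 7 are 50% of those tested, close to the 46.6% of all genes. In HOXB, HOXB-AS3, which runs antisense through HOXB3 to HOXB6, counted 190.0, 222 and 178 normalized counts in GFP cells and 392, 391 and 398 in RBFOX1 cells. Its log2 fold change was 1.01 ± 0.09 (SE), with an adjusted p of 8.47e-09. HOXB-AS1, antisense to HOXB2 and HOXB3, fell from 24.9, 23.4 and 23.2 to 7.26, 14.4 and 13.7, with a log2 fold change of -0.93 ± 0.28 (SE) and an adjusted p of 0.01, while HOXB2 rose. The 2 antisense RNAs thus changed in opposite directions within the same cluster, without overlap between groups.

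In HOXA, HOXA10-AS, which overlaps HOXA9 and HOXA10 on the other strand, rose as both did. It counted 66.8, 44.4 and 51.6 in GFP cells and 83.4, 114 and 96.8 in RBFOX1 cells, a log2 fold change of 0.82 ± 0.16 (SE) with an adjusted p of 0.000315. A pair of transcripts at the 3′ end fell. HOTAIRM1, a myeloid-expressed RNA beside HOXA2, counted 77.1, 87.6 and 70.6 against 25.4, 40.0 and 47.5, and HOXA-AS2, antisense to HOXA3 and HOXA4, counted 36.4, 32.7 and 29.5 against 18.1, 15.5 and 13.7. Their log2 fold changes were -0.97 ± 0.18 (SE) and -1.11 ± 0.24 (SE), with adjusted p-values of 0.000176 and 0.000797. Among the HOXA genes that passed, HOXA3, HOTAIRM1 and HOXA-AS2, in the 3′ part, were lower. HOXA5, HOXA9, HOXA10 and HOXA10-AS, further 5′, were higher. Genes that did not pass do not all follow this split. HOXA4 and HOXA6 were at log2 fold changes of 0.55 and 0.06, and HOXA11 and HOXA13, at the 5′ end, at -0.05 and -0.14. The HOXA3 call was lost in DESeq2 and without RBFOX1 library 3.

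HOTAIR, transcribed from HOXC opposite HOXC11 and best known as a partner of Polycomb complexes, counted 212, 203 and 209 in GFP cells and 307, 319 and 317 in RBFOX1 cells. Its log2 fold change was 0.59 ± 0.08 (SE), with an adjusted p of 4.7e-06, and the groups did not overlap. HAGLR, antisense to HOXD1 and HOXD3, had the largest fold of the noncoding genes that passed. It counted 46.7, 84.1 and 81.1 in GFP cells, where the first library was lower than the others, and 25.4, 18.9 and 22.8 in RBFOX1 cells. The log2 fold change was -1.61 ± 0.25 (SE), with an adjusted p of 2.3e-05. The coding genes beside it, HOXD1, HOXD3 and HOXD4, had 0 to 3, 11 to 29 and 1 to 5 counts per library and did not pass.

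**Figure D4:**
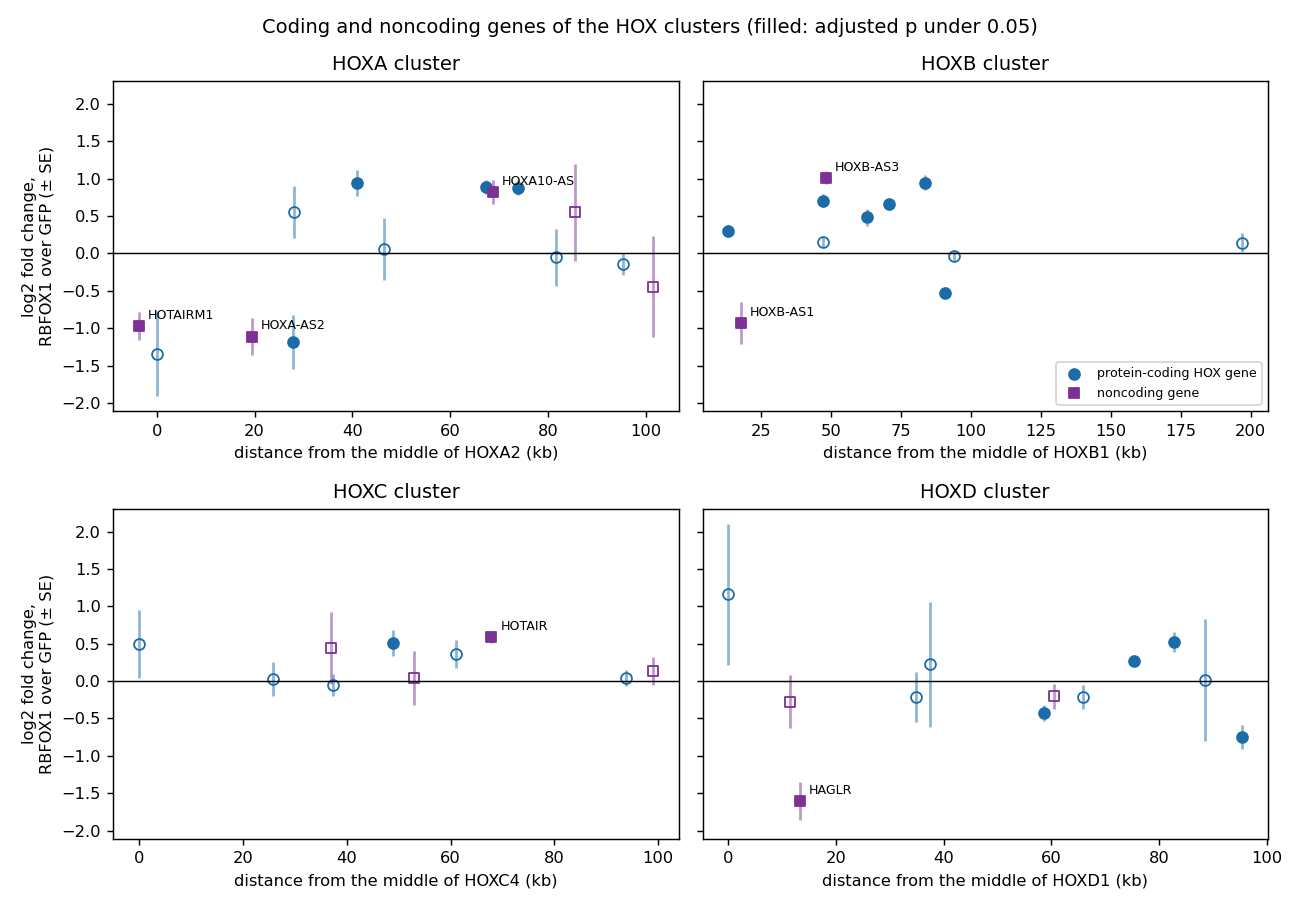
Log2 fold change of RBFOX1 over GFP cells with its SE, against the distance in kb of each gene's middle from the middle of the gene named on the axis (HOXA2, HOXB1, HOXC4 or HOXD1), 1 panel per cluster. Blue circles are protein-coding HOX genes, purple squares noncoding genes, filled where the adjusted p was under 0.05, and the 7 noncoding genes that passed are named. HOTAIRM1 and HOXA-AS2 lie with HOXA3 below 0 at the 3′ end of HOXA, and HOXA10-AS lies with HOXA9 and HOXA10 above 0.

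Genes outside the clusters were read as flanks. Of 14 flanking genes 10 were tested, 2 rose and 5 fell. These 7 are 70% of those tested, beside 46.6% of all genes tested. All 7, but not all 10, had a mean of at least 50 normalized counts. At that level 63.8% of all genes were called, 30.4% higher and 33.4% lower. On the HOXA side SKAP2, an adaptor protein gene, went from 1107, 1182 and 1190.4 to 760.0, 855 and 797, and HIBADH, a valine-degrading enzyme gene 325 kb away, from 1693, 1626 and 1656 to 1007, 1011 and 1021. Their log2 fold changes were -0.52 ± 0.06 (SE) and -0.71 ± 0.05 (SE), with adjusted p-values of 5.23e-07 and 6.19e-10. Beside HOXD, LNPK, an endoplasmic reticulum gene, fell at -0.68 ± 0.05 (SE) and MTX2, a mitochondrial import gene on the other side, at -0.24 ± 0.06 (SE), with adjusted p-values of 1.52e-09 and 0.00131. Beside HOXC, the heterochromatin gene CBX5 and the splicing factor gene HNRNPA1 rose at 0.46 ± 0.07 (SE) and 0.44 ± 0.06 (SE), with adjusted p-values of 1.76e-05 and 4.21e-06, and the DNA repair gene SMUG1 fell at -0.31 ± 0.08 (SE), with an adjusted p of 0.00354. The groups did not overlap for these 7 of the 10 tested genes, beside 53.4% of all genes tested. The genes that flank HOXA and fell lie on either side of a cluster in which HOXA5, HOXA9 and HOXA10 rose.

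The TALE genes read here were those of the PBX, MEIS and PKNOX families, whose products bind DNA with HOX proteins, and the TGIF repressors. MEIS1 and MEIS2 rose the most of the TALE genes with over 10 counts in GFP cells. All 11 TALE genes were tested, 6 rose and 1 fell, beside 23.7% and 22.9% of all genes tested. At a mean of at least 50 normalized counts 30.4% of all genes were higher and 33.4% lower. The median log2 fold change of the 11 was 0.71 beside 0.01 for all genes. The share that changed, 63.6%, stands beside 46.6% of all genes tested and 63.8% of those with a mean of at least 50 normalized counts. MEIS1 counted 319, 304 and 298 in GFP cells and 1506, 1659.8 and 1498 in RBFOX1 cells, a 5.05-fold rise with a log2 fold change of 2.34 ± 0.07 (SE) and an adjusted p of 3.08e-16. MEIS2 counted 749, 749 and 783 against 2367, 2411 and 2260.0, a 3.09-fold rise with a log2 fold change of 1.63 ± 0.05 (SE) and an adjusted p of 3.58e-15. In both, all RBFOX1 libraries lay far above all GFP libraries.

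PKNOX1 rose at a log2 fold change of 0.78 ± 0.08 (SE), with an adjusted p of 9.9e-08. Of the TGIF repressors, TGIF2 rose at 0.71 ± 0.07 (SE) and TGIF1 fell at -0.43 ± 0.05 (SE), with adjusted p-values of 2.4e-08 and 8.8e-07. PKNOX2, which also passed, had 1, 0 and 0 counts in GFP and 2, 14 and 6 in RBFOX1 libraries, with an adjusted p of 0.000506. PBX2, PBX3, PBX4 and MEIS3 did not pass.

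**Figure D5:**
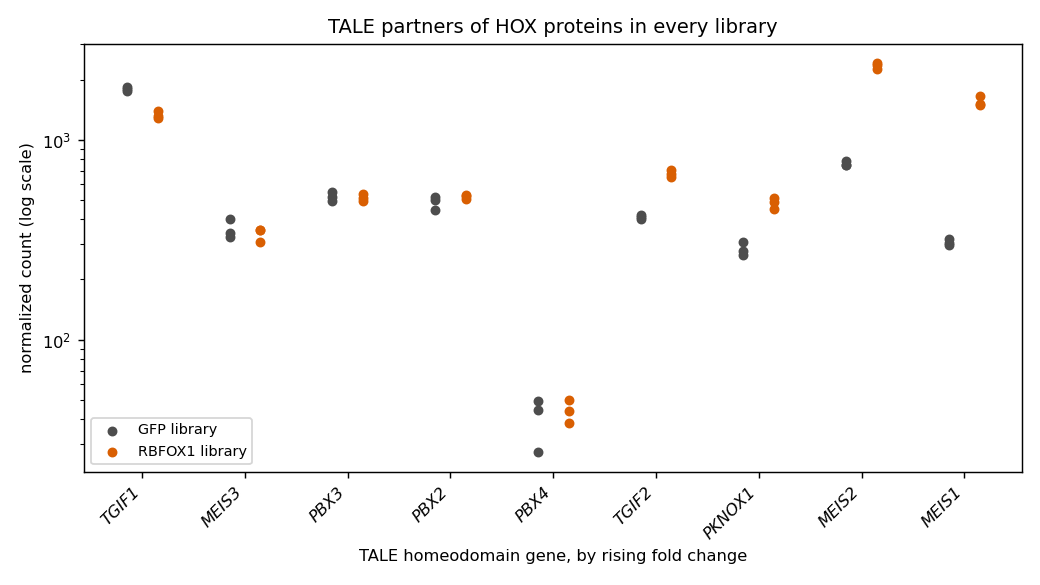
Normalized counts, on a log axis, of 9 TALE genes with a GFP mean of at least 10, ordered by rising fold change. Each point is 1 library, grey for GFP and orange for RBFOX1. MEIS1 and MEIS2 at the right separate most, with GFP libraries at 298 to 319 and RBFOX1 libraries at 1498 to 1660 for MEIS1, whereas PBX2, PBX3, PBX4 and MEIS3 overlap between groups.

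Of 16 upstream regulators, the genes of retinoic acid signalling and of CDX, hindbrain and trunk signals that set HOX expression in embryos, 10 were tested, 4 rose and 3 fell, beside 23.7% and 22.9% of all genes tested. EGR2, a hindbrain regulator, had 2, 2 and 3 counts in GFP and 9, 10 and 13 in RBFOX1 libraries, with an adjusted p of 0.000257. GDF11, a trunk signal for posterior HOX genes, rose at 0.45 ± 0.08 (SE), with an adjusted p of 0.000134. The retinoic acid genes that passed fell. They were the synthesis enzymes ALDH1A2 at -1.54 ± 0.37 (SE) and ALDH1A3 at -0.74 ± 0.11 (SE) and the receptor RARA at -0.36 ± 0.09 (SE), with adjusted p-values of 0.00173, 1.22e-05 and 0.00167. RARB and RARG did not pass, CDX2 and CDX4 were at 0, and CDX1, a direct activator of HOX genes in embryos, had 4, 0 and 0 counts in GFP and 3, 4 and 8 in RBFOX1 libraries, with an adjusted p of 0.022.

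Polycomb and Trithorax proteins keep HOX genes silent or active. All 27 genes of this list were tested, 10 rose, 2 fell and the median log2 fold change was 0.05. The 12 that changed are 44.4% of the list, beside 46.6% of all genes tested. All 27 had a mean of at least 50 normalized counts. At that level 63.8% of all genes were called, 30.4% higher and 33.4% lower. EZH2, the methyltransferase of Polycomb complex PRC2, counted 375, 385 and 400.3 in GFP cells and 762, 857 and 807 in RBFOX1 cells, a log2 fold change of 1.07 ± 0.07 (SE) with an adjusted p of 7.69e-11. JARID2, a PRC2 cofactor, rose at 0.32 ± 0.09 (SE) and BMI1, of complex PRC1, at 0.39 ± 0.07 (SE), with adjusted p-values of 0.00771 and 6.14e-05, while PHC2 of PRC1 fell at -0.37 ± 0.05 (SE), with an adjusted p of 3.92e-06. On the activating side WDR5 rose at 0.35 ± 0.06 (SE), and the boundary factor CTCF, which divides HOX clusters into domains, at 0.56 ± 0.06 (SE), with adjusted p-values of 6.76e-05 and 1.81e-07. KMT2A, the H3K4 methyltransferase that maintains HOX expression, did not pass.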

How the data were processed

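Per the labels and the study's methods, ribosomal RNA was depleted from total RNA of the A172 lines and stranded libraries were sequenced as 100-base pairs. The deposited values are raw counts per gene, which the authors made with HISAT2 on GRCh38 and HTSeq on reverse-strand reads with Ensembl 87 genes. The submitters' processing notes give no tool versions. A further deposited table holds the authors' own DESeq2 comparison (fold changes and p-values) and was not used. Lines of the count files that name no gene, 38.1% to 48.0% of the total per library, were left out of the library sizes of 7433414 to 23249221.

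Genes whose counts over the 6 libraries added up to 10 or more were fitted on condition alone with edgeR 4.0.16 in R 4.3.3 (TMM scaling, quasi-likelihood test, two-sided, Benjamini-Hochberg, threshold 0.05). Normalized counts are counts scaled to a common library size with TMM. Levels per length used the union of exons in GENCODE 44, a later release than that of the counts. The study's methods state 3 biological replicates for GFP and for RBFOX1, without saying whether each was infected separately. The labels only number them. The p-values therefore measure only the spread between these samples. Intervals cover counting error only. In simulated counts for 20072 genes the fit recovered 200 of 200 changed genes with 12 false calls. The changed genes were few, not low in counts and all changed by more than most HOX genes here. The result therefore does not give the power for smaller changes or for low counts.

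The members and all gene lists were chosen with earlier results of these data known. Members given a sentence of their own were those past the threshold with a mean of at least 50 normalized counts, the highest per-length level of each cluster and the edges of each expressed range. Of each list at most 6 genes, those with the lowest adjusted p, were given values, and for noncoding and flanking genes every one past the threshold. HOXA2, HOXA3, HOXB3, PKNOX2, CDX1 and the genes named beside a called neighbour were added after their values were seen. MIR10A and MIR196B were not matched by identifier. A few genes of these lists are counted in the totals but not reported here by name or drawn. Alternatives were DESeq2 1.42.0, limma-voom (limma 3.58.1), other scalings, filters and thresholds, other gene lengths and levels taken as expressed, a replicate block, and leaving out each library.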

Additional observations from a re-analysis of the deposited data

How the results depend on the processing

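Of the 15 HOX genes that changed, 13 did so under all 14 alternative fits, and HOXA3 and HOXC10 did not. A threshold that also asked for a log2 change of 1 or more in size left 1 gene, with 0 higher and 1 lower. The median log2 fold change of HOXA, 0.06, became 0.57 with filterByExpr, which tests fewer genes. That of HOXC, 0.20, became 0.25 with total counts only and 0.062 with filterByExpr, and ranged from 0.15 to 0.24 on leaving out a library. With genes at or under 3 counts set to the bound of their fold, the HOXD median went from 0.02 to -0.11, and it was -0.20 with filterByExpr and 0.27 with limma-voom. On leaving out a library it ranged from -0.24 (GFP 1) to 0.15 (GFP 2), with -0.17 without GFP 3 and -0.21 without RBFOX1 2, and the HOXA median ranged from -0.036 (RBFOX1 1) to 0.22 (GFP 1). Replicate numbers did not pair the samples (correlations of -0.179, 0.0343 and -0.0643 for equal numbers), and with the replicate block 15 HOX genes passed, 11 higher and 4 lower. The other 212 alternative values of the main counts and medians kept their direction or, as the HOXA and HOXD medians did, moved by less than the spread between libraries.

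Genes that did not pass changed sign under some settings, and the cause was not tested. HOXA11 was at 0.0047 with DESeq2 and 0.041 with the block, HOXB9 at 0.016 with total counts only, HOXC6 at -0.0026 with the block, and HOXD12 at -0.0045 with upper quartile factors and -0.021 with DESeq2. On leaving out a library the log2 fold changes ranged from -0.14 to 0.50 in HOXA6, -0.25 to 0.19 in HOXA11, -0.10 to 0.0081 in HOXB9, -0.12 to 0.12 in HOXC6, -0.14 to 0.092 in HOXC9, -0.031 to 0.10 in HOXC13, -0.51 to 0.11 in HOXD3, -0.87 to 1.16 in HOXD4 and -0.44 to 0.58 in HOXD12. The number of expressed HOX genes per cluster was the same with other gene lengths. At a level of 0.5 it rose by 1 in HOXA and HOXC, and at 2 it fell by 1 in both.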
